A study of Homo sapiens with 4 samples.

Results

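The SLC25 genes encode the mitochondrial carrier family, and 45 of the 19775 genes with a single symbol in the platform annotation had a symbol of the form SLC25A followed by a number. Where a gene had several probe sets, the one of highest mean log2 signal over the 4 arrays stood for it, a choice made without the group labels. Of the 45 genes, 39 passed a signal filter (at least 2 arrays over 24.8, which was the median of all values) and were tested. The other 6, SLC25A18, SLC25A21, SLC25A27, SLC25A31, SLC25A41 and SLC25A47, were at or below that threshold on every array at this probe set. They carry no statement here beyond that. SLC25A6 was not analysed here.

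Total RNA came from Z138, an established human mantle cell lymphoma line, and was measured on Affymetrix U133 Plus 2.0 arrays, 1 array per sample. All cells carried a stable lentiviral short hairpin. The shSOX11.1 and shSOX11.3 cells carried a different hairpin each against SOX11, a transcription factor commonly expressed in this lymphoma, and the shControl.1 and shControl.2 cells a different scrambled hairpin each. The submitters call the transduced cells clones of the line, and no untransduced cells were compared. No label says that any construct was cultured more than once, so each p-value reflects the spread among 4 arrays and hairpins, which may be technical. With so few arrays every value is imprecise. In RNA from bulk cells, fewer cells of a type and less RNA per cell cannot be told apart.

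Carriers of this family sit mostly in the inner mitochondrial membrane and are built from repeats of a similar domain. They exchange nucleotides, phosphate, carboxylates, amino acids, cofactors and metal ions between the cytosol and the matrix, and so join glycolysis, the citric acid cycle, oxidative phosphorylation and one-carbon metabolism. In most cells they supply the cytosol with ATP and citrate and the matrix with ADP and phosphate.

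SOX11 itself had a signal of 335 and 339 on the shSOX11 arrays, against 797 and 787 on the shControl arrays, so it stood at 42.5% of control at its brightest probe set. The other probe sets of SOX11 gave 36.0% and 45.4%. Of 5 B-cell markers, 4 had a named probe set and all 4 were above the threshold on every array. Of 7 T and NK cell markers 2, GNLY and CD7, were below it on every array, and 1, CD3G, was above it on every array (129 and 203 on the shSOX11 arrays, against 160.0 and 207 on the shControl arrays). Of 5 myeloid markers 2, CD14 and LYZ, were below it on every array, and CSF1R and CSF3R were above it on the shSOX11 arrays alone. The B-cell markers summed to 8281 and 9753 on the shSOX11 arrays, against 11391 and 10777 on the shControl arrays, and all 4 were lower in the mean. In limma CD79B (log2 change -0.68, adjusted p = 0.377) and PAX5 (-0.86, adjusted p = 0.532) had an unadjusted p under 0.05. So did the endothelial and leukocyte marker PECAM1 (0.83, adjusted p = 0.388). CSF3R had 30.6 and 30.3 on the shSOX11 arrays, against 8.51 and 7.67 on the shControl arrays, and since it passed the filter through the shSOX11 arrays alone no fold is given. Summed signals of the 7 T and NK cell markers were 219 and 252 on the shSOX11 arrays, against 278 and 291 on the shControl arrays. The 5 myeloid markers summed to 81.5 and 93.8, against 65.3 and 53.1, the 2 erythroid markers with a probe set to 68.5 and 55.8, against 87.9 and 49.1, and the 7 epithelial and stromal markers to 1661 and 1388, against 1403 and 1445. For beta-actin, the ratio of 3′ to 5′ control signals was 7.29 and 5.31 in the shSOX11 cells, against 11.6 on both shControl arrays, while that of GAPDH was 1.01 and 1.03, against 0.978 and 1.06. The groups did not overlap in the beta-actin ratio or in the B-cell, T and NK cell and myeloid sums, and overlapped in the GAPDH ratio and in the other sums. Single markers did not all follow their sums. The groups overlapped in CD79A, in CD3G, which made up most of the T and NK cell sum, and in MPO (18.3 and 24.7, against 25.9 and 21.9). CD14 and LYZ, below the threshold, were lower on both shSOX11 arrays, against the direction of the myeloid sum. COL1A1 made up most of the epithelial and stromal sum (1047 and 881, against 1063 and 1012) and overlapped. In PECAM1, of the same list, the groups did not overlap (483 and 387, against 212 and 280). KRT8, KRT18, COL1A1 and PECAM1 were above the threshold on every array. The part of these ratios and sums in the comparisons was not tested.

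No SLC25 gene passed limma's test at an adjusted p of 0.05, and neither did any of the 11938 genes tested (0%). In limma 3 of the 39 carriers had an unadjusted p under 0.05, where 8.38% of all genes did. These were SLC25A40 and SLC25A20, higher on the shSOX11 arrays (3.40% of all genes were higher at this level), and SLC25A23, lower (4.98% of all genes). One further rule asked for a 1.5-fold gap between each shSOX11 and each shControl array. SLC25A35 met it as the 1 carrier, on the higher side, beside 2.69% of all genes (0.762% higher and 1.93% lower). It did so on shControl signals below the threshold, having passed the filter through the shSOX11 arrays alone. Against the threshold itself the gap was 1.49-fold, short of the rule, so the call is not read as a difference. The family's share under both rules was near that of all genes.

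**Figure D1:**
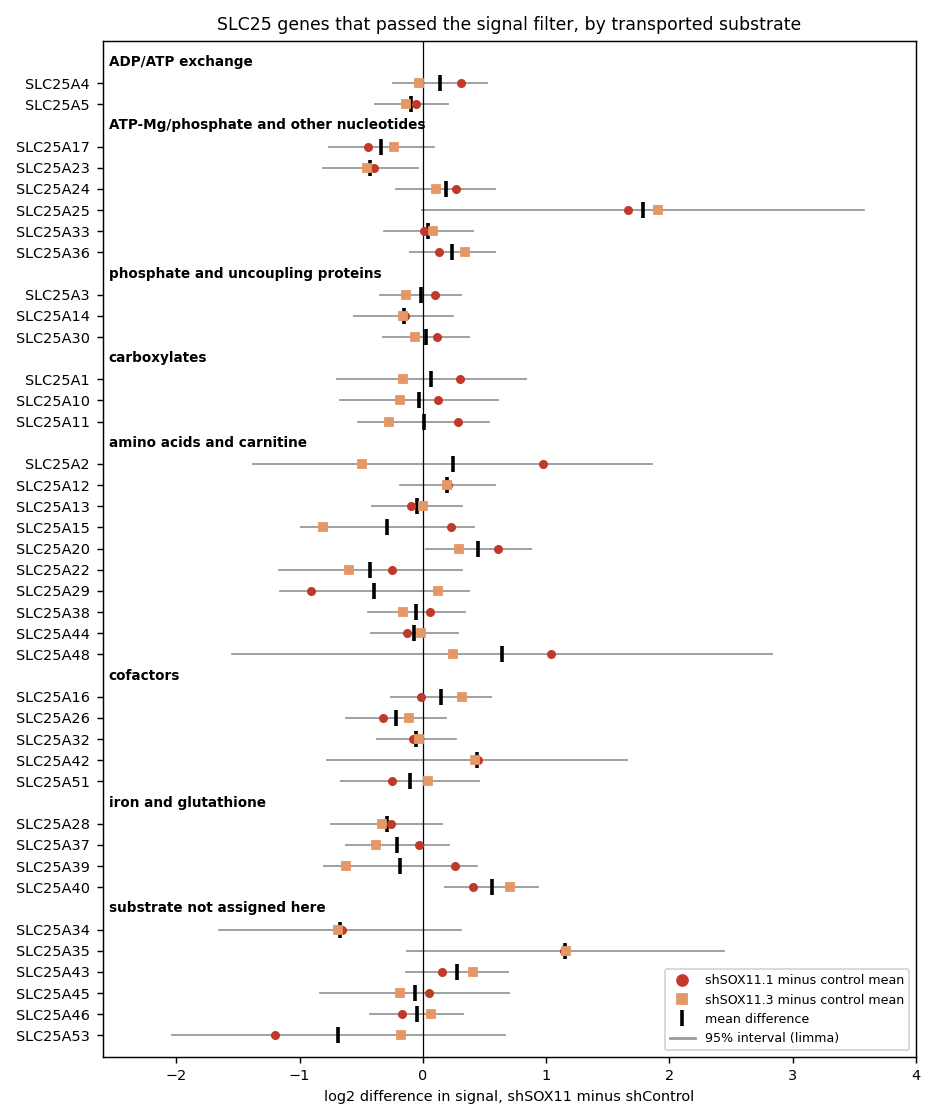
Log2 difference in signal between the shSOX11 and shControl arrays (horizontal axis) for the 39 SLC25 genes that passed the signal filter, grouped by the substrate they carry. The black bar is the mean difference, the grey line its 95% interval from limma, and the points give each shSOX11 array minus the control mean. The intervals of SLC25A40, SLC25A20 and SLC25A23 do not reach 0, and SLC25A35 is drawn at its fitted value although its shControl signals were below the threshold.

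SLC25A40, which imports glutathione into the matrix, had the smallest p of the family, although it did not pass the adjusted test. The shSOX11.1 array read 839 and the shSOX11.3 array 1033, against 609 and 655 on the shControl arrays. Both shSOX11 arrays lay above both shControl arrays. The log2 means were 9.86 ± 0.21 in shSOX11 and 9.30 ± 0.07 in shControl (SD, n = 2 each), a log2 change of 0.56 (SE 0.16) or 1.47-fold. The 95% interval of the log2 change was 0.18 to 0.94. In limma the p was 0.0088 unadjusted and 0.446 adjusted, and SLC25A40 ranked 233rd of 11938 genes by p. The log2 change was 0.71 with shSOX11.1 left out and 0.41 with shSOX11.3 left out. It was 0.51 with shControl.1 left out and 0.61 with shControl.2 left out. Each of these fits holds a single array in 1 group and takes its error from the other group alone, so no p is given.

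A second SLC25A40 probe set lay further apart between the groups. It gave 176 and 229 on the shSOX11 arrays, against 81.2 and 87.6 on the shControl arrays. There the log2 difference was 1.25 (SE 0.23), or 2.38-fold, with a limma p of 4.581e-04 unadjusted and 0.348 adjusted over 28202 probe sets, of which 0.00355% passed. That fit was chosen after seeing the data. Both probe sets of this gene therefore put the shSOX11 arrays above the shControl arrays, at sizes of 0.56 and 1.25 in log2. With each probe set tested on its own, 5 of the 71 carrier probe sets past the filter had an unadjusted limma p under 0.05, where 8.26% of all probe sets did, and 2 of the 5 belonged to SLC25A40.

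SLC25A40 starts 132 bases from the start of DBF4, a regulatory subunit of the replication kinase CDC7, which is transcribed in the opposite direction. DBF4, looked up after the values of its neighbour were seen, had signals of 3058 and 2988 on the shSOX11 arrays, against 2536 and 2743 on the shControl arrays. The shSOX11 arrays were the higher ones here too, but the log2 change was 0.20 (SE 0.14, limma adjusted p = 0.679) and could not be told from the spread between arrays. The stretch between the 2 starts is printed here with the same length upstream of SLC25A20 and SLC25A23, because these are the carriers with an unadjusted p under 0.05. They are RefSeq sequences of GRCh38.p14, on the gene's own strand, which is minus for all 3. They lie at chr7:87876361-87876492, chr3:48898883-48899014 and chr19:6459793-6459924. Capitals mark the GC box GGGCGG and the core CCAAT on either strand.
SLC25A40: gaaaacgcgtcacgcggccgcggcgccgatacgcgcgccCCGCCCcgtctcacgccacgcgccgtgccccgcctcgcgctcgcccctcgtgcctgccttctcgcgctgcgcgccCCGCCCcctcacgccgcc
SLC25A20: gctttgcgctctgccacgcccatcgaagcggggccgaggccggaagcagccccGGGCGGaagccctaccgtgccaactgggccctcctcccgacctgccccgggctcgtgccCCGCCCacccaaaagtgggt
SLC25A23: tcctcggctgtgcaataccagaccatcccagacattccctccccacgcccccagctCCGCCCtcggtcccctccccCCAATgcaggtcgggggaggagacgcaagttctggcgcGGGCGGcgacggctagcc

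Each of these windows held 2 GC boxes, and the SLC25A23 window held 1 CCAAT. None held AACAAT or ACAAAG, cores that SOX proteins are known to bind. Among 35116 RefSeq promoter windows of the same length, 35.3% held GGGCGG, 21.7% CCAAT, 4.64% AACAAT and 7.35% ACAAAG, on either strand. Of the 45 carriers 38 had an entry in the promoter table. GGGCGG was present for 26 of them, CCAAT for 17, ACAAAG for 3 and AACAAT for 0, where a gene with several starts counts if any window holds the motif. The percentages above are per window, so these counts per gene are not read against them. GC content was 81.1% upstream of SLC25A40, 73.5% upstream of SLC25A20 and 69.7% upstream of SLC25A23. The motifs searched do not overlap each other in these windows.

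SLC25A20, the carnitine-acylcarnitine carrier that brings fatty acids into the matrix for oxidation, had signals of 328 and 263 on the shSOX11 arrays, against 213 and 218 on the shControl arrays. The groups did not overlap, and the shSOX11.1 array was the highest. Log2 means were 8.20 ± 0.22 in shSOX11 and 7.75 ± 0.03 in shControl (SD, n = 2 each), a log2 change of 0.45 (SE 0.19). In limma the p was 0.041 unadjusted and 0.579 adjusted. The unadjusted limma p was 0.0499 with every probe set on its own. It was no longer under 0.05 with quantile normalization, at a log2 change of 0.43 (SE 0.20).

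SLC25A23, which exchanges ATP-magnesium for phosphate under the control of calcium, went the other way. It had 226 and 217 on the shSOX11 arrays, against 304 and 291 on the shControl arrays, with no overlap. Its log2 means were 7.79 ± 0.04 in shSOX11 and 8.22 ± 0.04 in shControl (SD, n = 2 each), a log2 change of -0.43 (SE 0.17). In limma the p was 0.035 unadjusted and 0.560 adjusted, and the unadjusted p was no longer under 0.05 with median centring, at a log2 change of -0.34 (SE 0.16), or with the mean of probe sets, at -0.34 (SE 0.26). At a second, dimmer SLC25A23 probe set the groups overlapped (log2 difference -0.25, SE 0.46).

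**Figure D2:**
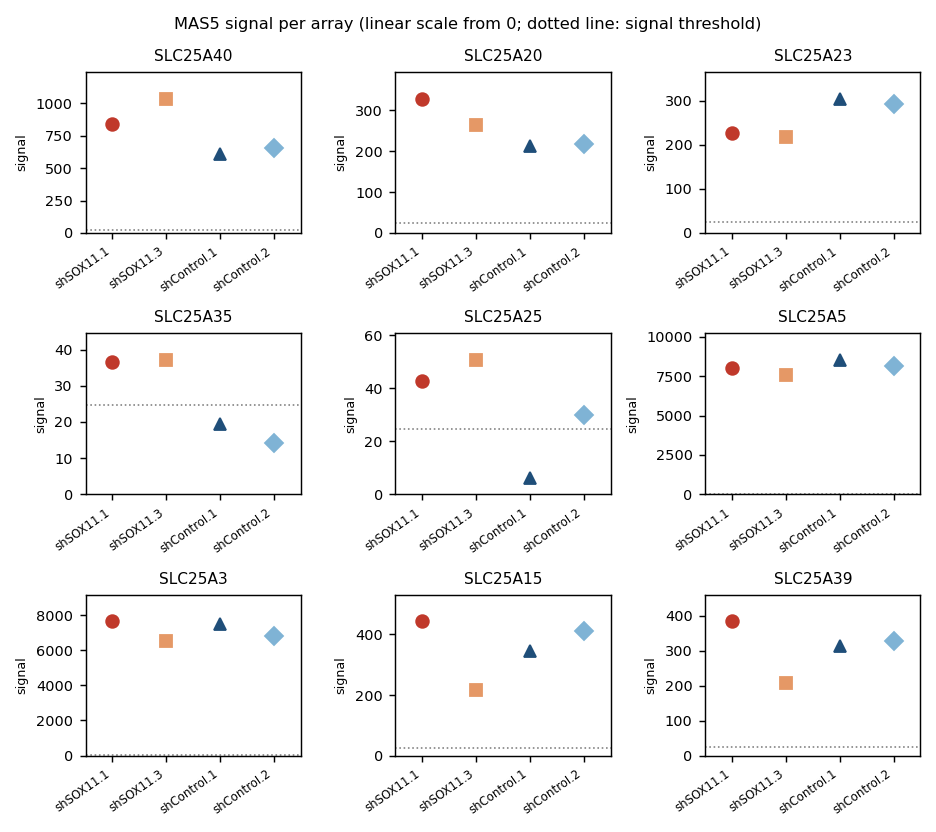
MAS5 signal (vertical axis, linear from 0, each gene on its own scale) on the shSOX11 and shControl arrays for 9 SLC25 genes; the dotted line is the signal threshold of 24.8. In SLC25A40 and SLC25A20 both shSOX11 arrays are above both shControl arrays, in SLC25A23 below, and in SLC25A15 and SLC25A39 the 2 shSOX11 arrays lie on opposite sides of the controls.

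The ADP/ATP carriers exchange cytosolic ADP for matrix ATP, and neither of the tested isoforms differed beyond the spread between arrays. SLC25A5, the isoform typical of proliferating cells, had 8050 and 7606 on the shSOX11 arrays, against 8529 and 8180 on the shControl arrays. Both shSOX11 arrays were lower, but the log2 change was only -0.09 (SE 0.13, 95% interval -0.39 to 0.20, limma adjusted p = 0.841). SLC25A4, the isoform of heart and muscle, had 1211 and 954, against 1012 and 941, so its groups overlapped (log2 change 0.14, SE 0.17). SLC25A31, the germ cell isoform, was below the threshold on all arrays, at 5.96 and 5.77 in shSOX11 and 0.433 and 10.1 in shControl. These paralogs are alike in sequence, and cross-hybridisation between them was not tested.

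SLC25A3, the carrier that supplies phosphate for ATP synthesis, had 7641 and 6498 on the shSOX11 arrays, against 7481 and 6791 on the shControl arrays. The shSOX11 arrays took both the highest and the lowest value (log2 change -0.02, SE 0.14, 95% interval -0.35 to 0.31). The uncoupling protein relatives SLC25A14 and SLC25A30 had log2 changes of -0.16 (SE 0.18) and 0.03 (SE 0.15). In this role 0 of 3 tested genes reached an unadjusted limma p of 0.05, where 8.38% of all genes did.

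Other nucleotide carriers held members on both sides. SLC25A36, a pyrimidine nucleotide carrier, had 1333 and 1542 on the shSOX11 arrays, against 1160 and 1271 on the shControl arrays. The groups were separate by a small margin (log2 change 0.24, SE 0.15, limma adjusted p = 0.660), and 4 of its 5 probe sets past the filter were higher in the mean. Its relative SLC25A33 had 517 and 544, against 540 and 489 (log2 change 0.05, SE 0.16). Among the ATP-magnesium carriers related to SLC25A23, SLC25A24 had 284 and 254, against 229 and 244, separate by a small margin, with a log2 change of 0.19 (SE 0.17). The peroxisomal carrier SLC25A17, which moves coenzyme A and related cofactors, was lower on both shSOX11 arrays, with a log2 change of -0.34 (SE 0.19, limma adjusted p = 0.635) and -0.29 at its other probe set.

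SLC25A25, also an ATP-magnesium carrier, had 42.8 and 50.7 on the shSOX11 arrays, against 6.09 and 29.9 on the shControl arrays. shControl.1 was below the threshold while the other arrays were above it. The log2 change of 1.79 (SE 0.78, limma adjusted p = 0.587) was 0.64 with shControl.1 left out and 0.70 with a pseudocount of 32. SLC25A35, a carrier of no settled substrate, had 36.7 and 37.1 on the shSOX11 arrays, against 19.4 and 14.1 on the shControl arrays. Since both shControl arrays were below the threshold, only a bound holds, at least 1.49-fold, taken as the shSOX11 mean over the threshold. SLC25A35 passed the filter through the shSOX11 arrays alone, which favoured this direction, so no p is given.

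Carriers of carboxylates showed little difference between groups. SLC25A1, which exports citrate for lipid synthesis, had 87.2 and 63.4 on the shSOX11 arrays, against 54.7 and 91.8 on the shControl arrays, each group spanning much of the other. SLC25A10, the dicarboxylate carrier, had 77.3 and 62.3, against 76.0 and 66.3. SLC25A11, the oxoglutarate carrier of the malate-aspartate shuttle, had 294 and 200.1, against 216 and 271. The log2 changes of the 3 genes were 0.07, -0.03 and 0.01, with standard errors of 0.34, 0.28 and 0.23, so differences of moderate size would not have been detectable.

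The aspartate-glutamate carriers are the other arm of that shuttle. SLC25A12 had 275 and 273 on the shSOX11 arrays, against 239 and 237 on the shControl arrays. Its groups were separate and narrow, at a log2 change of 0.20 (SE 0.17, limma adjusted p = 0.732), yet its second probe set went the other way, at -0.16. SLC25A13 had 568 and 608, against 564 and 656, with overlap and a log2 change of -0.05 (SE 0.16). SLC25A22, a glutamate carrier, had 55.4 and 43.4, against 75.3 and 57.8. It was lower on both shSOX11 arrays by a narrow margin (log2 change -0.43, SE 0.33).

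SLC25A15, the ornithine carrier of the urea cycle, differed widely between the hairpins. The signal was 443 with the first hairpin, shSOX11.1, and 216 with shSOX11.3, against 345 and 413 on the shControl arrays. Set against the mean of the controls, shSOX11.1 was at 0.23 and shSOX11.3 at -0.81 in log2. Over both hairpins the gene stood at -0.29 (SE 0.31, limma adjusted p = 0.789), and at -0.81 where shSOX11.1 was left out. A dimmer probe set of the gene had 47.6 and 34.1, against 21.6 and 22.2. Both shControl values there were below the threshold. That probe set passed the filter through the shSOX11 arrays alone, which favoured its higher direction, so it is not read against the first. SLC25A38, the glycine carrier needed for haem synthesis, had 312 and 268, against 296 and 303 (log2 change -0.05, SE 0.17).

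SLC25A32, a carrier of folate and flavin cofactors, had 1372 and 1419 on the shSOX11 arrays, against 1412 and 1485 on the shControl arrays. These values overlapped and spanned a narrow range (log2 change -0.05, SE 0.14, 95% interval -0.37 to 0.27). SLC25A26, the S-adenosylmethionine carrier, was at -0.22 (SE 0.18) and SLC25A51, the NAD carrier, at -0.10 (SE 0.25). All 5 cofactor carriers listed were tested, and 0 reached an unadjusted limma p of 0.05, where 8.38% of all genes did.

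The iron carriers, known as mitoferrins, were lower in the mean. SLC25A28 had 130.1 and 124 on the shSOX11 arrays, against 151 and 160.1 on the shControl arrays. Its groups did not overlap (log2 change -0.29, SE 0.20, limma adjusted p = 0.675), and its second kept probe set was at -0.24. SLC25A37, the erythroid isoform, had 444 and 348, against 426 and 482. The shSOX11.1 array lay between the controls, and the log2 change was -0.21 (SE 0.18), with 7 of its 8 kept probe sets lower in the mean. The dimmest of the 7 had 2.66 and 21.4, against 27.9 and 31.2. It passed the filter through the shControl arrays alone, which favoured its lower direction. All these probe sets were read on the same arrays and are not repeat measurements. SLC25A39, which like SLC25A40 imports glutathione, read 384 with the shSOX11.1 hairpin and 207 with shSOX11.3, against 314 and 326 on the shControl arrays. The 2 shSOX11 arrays thus lay on opposite sides of the controls, at log2 changes of 0.26 and -0.63 against the control mean, whereas SLC25A40 was higher on both.

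SLC25A46, an outer membrane member linked to mitochondrial shape, had 859 and 1012 on the shSOX11 arrays, against 1047 and 892 on the shControl arrays. Its groups interleaved at this probe set (log2 change -0.05, SE 0.16). At a second probe set of similar signal the gene had 861 and 730.2, against 620.3 and 686, with the shSOX11 arrays higher (0.28).

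Among the carriers named by no rule, SLC25A34 had 28.0 and 27.4 on the shSOX11 arrays, against 50.4 and 38.8 on the shControl arrays. Its signals did not overlap but were dim (log2 change -0.68, SE 0.43, limma adjusted p = 0.663). SLC25A53 was likewise lower on both shSOX11 arrays, with 14.1 and 28.7, against 33.4 and 31.5, at -0.69 (SE 0.59). Its shSOX11.1 value was below the threshold and the others were near it. SLC25A43 was higher on both shSOX11 arrays, at 0.28 (SE 0.18). For SLC25A2, SLC25A16, SLC25A29, SLC25A42, SLC25A44, SLC25A45 and SLC25A48 the groups overlapped, with log2 changes from -0.39 to 0.64.

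Over the 39 carriers tested the median log2 change was -0.05, beside -0.06 over all 11938 genes, and the range was -0.69 to 1.79. In the mean 17 were higher (43.6%) and 22 lower, where 41.9% of all genes were higher and 58.1% lower. With each array centred on its median, 25 were higher and 14 lower (64.1%, beside 52.7% of all genes), so the sides of the smallest changes depend on the scaling. Both shSOX11 arrays were above both shControl arrays for 8 carriers, where 16.2% of all genes were, and below for 9, where 24.9% were. The shSOX11 arrays were on opposite sides of the control mean for 15 carriers, where 38.4% of all genes were. The median distance in log2 between the 2 shSOX11 arrays was 0.24 over the carriers, beside 0.30 over all genes. Between the 2 shControl arrays it was 0.14, beside 0.18 over all genes.

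**Figure D3:**
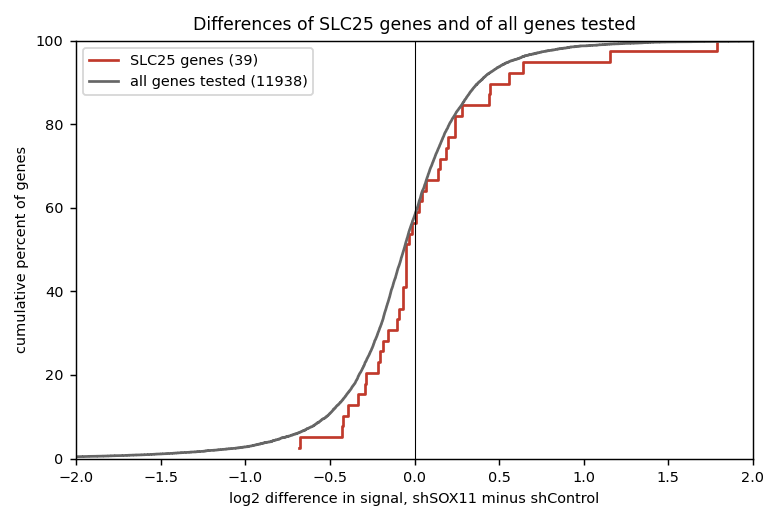
Cumulative percent of genes (vertical axis) by log2 difference in signal between the shSOX11 and shControl arrays (horizontal axis), for the 39 SLC25 genes tested and for all 11938 genes tested. The medians are -0.05 and -0.06; a few genes outside the range from -2 to 2 are not drawn.

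Precision followed the signal. For the 11 carriers with a mean signal over 500 the standard errors of the log2 change lay between 0.13 and 0.17, and the changes between -0.09 and 0.56. For the 16 carriers between 100 and 500 the standard errors reached 0.33, and for the 12 under 100 they reached 0.96. SLC25A25 and SLC25A35 were both in that dimmest set. Signals of different probe sets were not compared as transcript levels, since each probe set has its own response.

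More than 1 probe set passed the filter for 19 carriers. All kept probe sets of a gene lay on one side for 8 of them, with 1 higher, SLC25A40, and 7 lower, and on both sides for the other 11. The matching share over all genes was not computed, so this split is not read as a trait of the family. The 11 include SLC25A15 and SLC25A37, each with a probe set that passed the filter through 1 group alone. The median distance in log2 between the highest and the lowest kept probe set of a gene was 0.30.

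**Figure D4:**
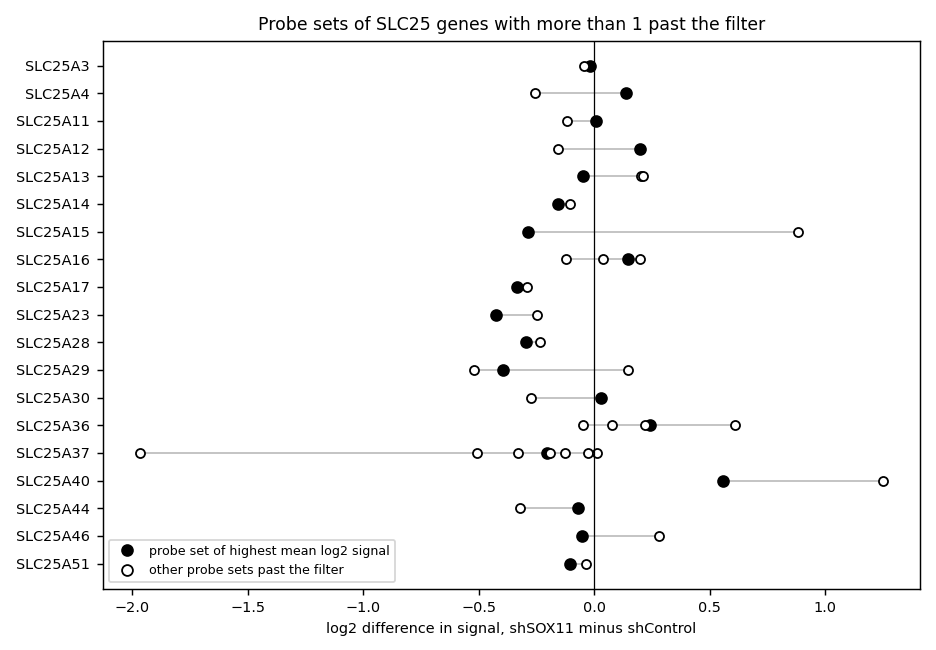
Log2 difference in signal between the shSOX11 and shControl arrays (horizontal axis) at each probe set past the filter, for the 19 SLC25 genes with more than 1; filled points mark the probe set of highest mean log2 signal. Both SLC25A40 points lie above 0, at 0.56 and 1.25, and the SLC25A15 points lie on both sides. The higher SLC25A15 point is a probe set that passed the filter through the shSOX11 arrays alone.

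Carriers reach the inner membrane through the TIM22 route, in which TOMM proteins, small TIMM chaperones and the TIM22 complex hand them on. Of 16 such genes listed, 14 had a named probe set and were tested. Of these 0 reached an unadjusted limma p of 0.05, where 8.38% of all genes did. In the mean 12 were lower and 2 higher, where 58.1% of all genes were lower, with a median log2 change of -0.17 beside -0.06 over all genes. Both shSOX11 arrays were below both shControl arrays for 7, where 24.9% of all genes were. Centring each array on its median gave 10 lower and 4 higher, where 52.7% of all genes were higher, and a median of -0.09 beside 0.02. The 2 higher ones, named after their values were seen, were the receptor subunit TOMM22 (log2 change 0.26, SE 0.18) and AGK, a TIM22 subunit (0.03, SE 0.26).

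Of 22 other mitochondrial transporters listed, among them the outer membrane pores, the pyruvate carrier, sideroflexins and uncoupling proteins, 18 were tested. In the mean 6 were higher and 12 lower, where 58.1% of all genes were lower, and median centring gave 9 and 9, where 52.7% of all genes were higher. VDAC1, the main metabolite pore of the outer membrane, was the 1 gene of this list with an unadjusted limma p under 0.05, where 8.38% of all genes had one. It had 5850 and 6098 on the shSOX11 arrays, against 4271 and 5003 on the shControl arrays, with no overlap. The difference in log2 came to 0.37 (SE 0.14), with a limma adjusted p of 0.544.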

How the data were processed

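Values are MAS5 probe set signals on a linear intensity scale, deposited by the authors. Per the submitters' processing notes they came from Affymetrix Expression Console with MAS5, and program versions and scaling settings are not stated in what was used here. Every array had a 2% trimmed mean of 150.02, so no further normalization preceded log2. Sample titles gave the groups. Of 54675 probe sets, 41097 carried 1 gene symbol and 1801 several, and none of the several-symbol sets named an SLC25 gene. Probe sets entered if the signal exceeded 24.8 on at least 2 of 4 arrays (28202). Each gene was read at its kept probe set of highest mean log2 signal, giving 11938 genes. Groups were compared with limma 3.58.1 in R 4.3.3 (lmFit, eBayes with trend; two-sided; Benjamini-Hochberg over all genes), on 2 residual degrees of freedom, 8.39 after moderation, and intervals are limma's at 95%. With 2 arrays a group, exact permutation could reach no p under 0.333 and was left out. The fit was tested on simulated data.

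The SLC25 genes and the other lists were chosen with earlier results of these data known. Array values were given by rule for SOX11, the 6 brightest carriers, those with an unadjusted p under 0.05 or 1.5-fold apart on all pairs, and a set fixed by role, and of other lists only for members with an unadjusted p under 0.05. Genes described beyond that rule, such as DBF4, SLC25A17 and SLC25A34, were chosen after their values were seen.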

Additional observations from a re-analysis of the deposited data

How the results depend on the processing

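No paired analysis was possible because the groups share only construct number 1. In every alternative with all 4 arrays limma called 0 SLC25 genes, 0 TIM22 route genes and 0 other transporters at an adjusted p of 0.05 (3, 0 and 1 at an unadjusted p under 0.05 as reported). Over all genes the count was 0, and 1 with every probe set on its own. The 3 carriers at an unadjusted p under 0.05 became 6 of 41 with the filter at the 35th percentile, where 7.29% of 15277 genes were called. With each probe set on its own they became 5 of 71 probe sets, where 8.26% of all probe sets were called. The 1 carrier 1.5-fold apart became 0 with a pseudocount of 32, with the filter at the 65th percentile or at 2-fold, and 2 with the filter at the 35th percentile or the mean of probe sets. Over all genes the 1.5-fold rule called 87 of 11938 with the pseudocount and 131 of 9155 at the 65th percentile. It called 763 of 15277 at the 35th percentile and 321 of 11938 with the mean of probe sets. With 1 array left out, the counts ranged from 0 to 953 for all genes, 0 to 2 for carriers, 0 to 3 for TIM22 genes and 0 to 3 for other transporters (adjusted p), 0 to 7 for carriers at an unadjusted p and 2 to 5 for carriers 1.5-fold apart, and the carriers' median log2 change from -0.090 to 0.057. The high counts arose without shSOX11.1 (953) and without shSOX11.3 (211), fits whose error comes from the shControl arrays. The cause of the other shifts was not tested. Among the fits with 1 array left out, the share of all genes at an unadjusted p under 0.05 was also highest without shSOX11.1, then without shSOX11.3. The 1.5-fold rule called more of all genes with any 1 array left out than in the main comparison. The carrier counts with 1 array left out are therefore not read as a trait of the family.

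SLC25A40 (0.41 to 0.90), SLC25A20, SLC25A23, SLC25A35, SLC25A25, SLC25A36, SLC25A24, SLC25A12, SLC25A22, SLC25A28 and SLC25A37 kept their direction in every alternative that gave the gene 1 value. With every probe set on its own, 1 probe set each of SLC25A12 (-0.16), SLC25A36 (-0.05) and SLC25A37 (0.01) went the other way. SLC25A25 ran from 0.64 to 2.93. SLC25A35 passed the main filter through the shSOX11 arrays alone and allows only its bound, so its kept direction is not read as a result. Neither gene had a value with the filter at the 65th percentile. Of the named carriers' alternative values 30 changed sign, none with an adjusted p under 0.05. With quantile normalization these were SLC25A5 (0.026), SLC25A3 (0.107) and SLC25A11 (-0.013). With median centring they were SLC25A3 (0.066), SLC25A32 (0.030), SLC25A46 (0.031), SLC25A13 (0.033), SLC25A10 (0.050) and SLC25A38 (0.031). With the mean of probe sets they were SLC25A4 (-0.059), SLC25A46 (0.115), SLC25A13 (0.121), SLC25A15 (0.297) and SLC25A11 (-0.057). The SLC25A15 mean took in the probe set that passed the filter through the shSOX11 arrays alone. With 1 array left out, signs changed within these ranges: -0.133 to 0.10 for SLC25A3, -0.033 to 0.311 for SLC25A4, -0.170 to 0.067 for SLC25A46, -0.158 to 0.058 for SLC25A13, -0.808 to 0.231 for SLC25A15, -0.303 to 0.443 for SLC25A1, -0.189 to 0.123 for SLC25A10, -0.272 to 0.284 for SLC25A11, -0.026 to 0.116 for SLC25A33, -0.162 to 0.057 for SLC25A38 and -0.627 to 0.260 for SLC25A39.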
